A study of Mus musculus with 18 samples.

Results

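B16F10 is a pigmented mouse melanoma cell line of the C57BL6 strain. Libraries from B16F10 cells labelled as carrying MRTFA in the pRetrox vector were compared with libraries labelled as the pRetrox control. The comparison used 6 of the 18 libraries of the series, taken by their labels: replicates 1, 2 and 3 of each group. All 6 groups of the series, the controls included, had received doxycycline at 500 ng/mL for 48 hours, the treatment that induces the transgene. Group by group, the cells compared were therefore B16F10 with MRTFA and B16F10 with the control construct, grown in the same medium. The 3 B16F10 libraries labelled MRTFB, and 6 libraries of the E0771 mammary tumour line (3 MRTFA, 3 control, same strain and treatment), were used to show where the B16F10 response to MRTFA differed. The 3 B16F10 MRTFB libraries also entered the filter and the fit of MRTFA against control, and so its estimate of spread. E0771 libraries labelled MRTFB entered only the fits of that line and of both lines. The labels do not state whether replicates were separate cultures, pools or clones. The p-values of the main fit therefore measure only the spread left among these libraries after shifts shared by equal replicate numbers are removed.

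MRTFA (Mkl1 in the gene table) and MRTFB (Mkl2) are coactivators of the transcription factor SRF. Both bind monomeric actin, which holds them in the cytoplasm. When signals drive actin into filaments, they are released, enter the nucleus and join SRF at CArG boxes, short A/T-rich elements flanked by C and G pairs. Classical targets encode actins, myosin light chains, calponins, tropomyosins, focal adhesion proteins and SRF itself. In smooth and striated muscle this system maintains the contractile programme. In tumour cells it is known for its part in cell stiffness, adhesion and motility.

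To show what the named element looks like, the sequence before the RefSeq start (GRCm38.p6) is printed for the 5 genes among the largest increases and the well-known targets whose window held a CArG box before the start. Each run is 5′ to 3′ on the gene's strand, stops before the first GENCODE exon, and has the box in capitals.
Actc1, chr2:114052888-114053125, minus strand: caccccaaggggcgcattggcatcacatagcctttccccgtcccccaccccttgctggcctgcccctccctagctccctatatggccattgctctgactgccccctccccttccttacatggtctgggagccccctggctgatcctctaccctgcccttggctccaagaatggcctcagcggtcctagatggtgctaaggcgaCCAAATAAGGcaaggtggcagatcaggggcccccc
Acta1, chr8:123894776-123895025, minus strand: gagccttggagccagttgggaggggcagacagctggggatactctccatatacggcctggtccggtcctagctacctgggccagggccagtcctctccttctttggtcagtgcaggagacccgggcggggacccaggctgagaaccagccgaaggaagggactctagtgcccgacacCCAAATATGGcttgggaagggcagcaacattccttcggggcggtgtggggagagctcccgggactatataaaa
Myl9, chr2:156775214-156775419, plus strand: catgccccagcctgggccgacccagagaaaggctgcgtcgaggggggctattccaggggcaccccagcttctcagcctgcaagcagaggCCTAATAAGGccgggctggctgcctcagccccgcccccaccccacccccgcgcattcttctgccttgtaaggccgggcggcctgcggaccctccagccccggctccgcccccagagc
Vcl, chr14:20929148-20929397, plus strand: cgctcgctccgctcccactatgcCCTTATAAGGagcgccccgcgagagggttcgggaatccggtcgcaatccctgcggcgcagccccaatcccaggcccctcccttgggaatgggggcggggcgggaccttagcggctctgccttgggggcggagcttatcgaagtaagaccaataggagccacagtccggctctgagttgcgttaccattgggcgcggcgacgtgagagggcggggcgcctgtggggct
Srf, chr17:46556176-46556412, minus strand: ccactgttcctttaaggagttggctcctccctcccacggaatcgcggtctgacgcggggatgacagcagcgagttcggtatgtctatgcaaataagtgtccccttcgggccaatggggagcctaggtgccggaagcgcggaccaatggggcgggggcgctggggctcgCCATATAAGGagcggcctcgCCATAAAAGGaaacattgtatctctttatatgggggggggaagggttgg
The first base of the box lay 47 bases before the start in Actc1, 73 in Acta1, 161 in Myl9 and 227 in Vcl. Srf held a pair of boxes, which began 82 and 62 bases before the start. A match is a description of letters and not a measured binding site.

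The 6 libraries held 29928592 to 32344081 gene-assigned reads each, so a gene with no read in a library could have had up to 0.0928 to 0.10 CPM there (3 reads of the total, counting error only). The first principal component of the 6 libraries took 59.6% of the variance and separated MRTFA (-42.6 to -28.1) from control (20.97 to 42.8). The second, with 19.2%, set both libraries of replicate 3 apart from replicates 1 and 2, and control replicate 3 lay nearest to MRTFA on the first. All 7 melanocyte markers (Mitf, Tyr, Tyrp1, Dct, Pmel, Mlana, Sox10) were present, with a summed level of 594106 to 757748 scaled reads in controls and 616202 to 691199 in MRTFA libraries, and none was called. A scaled read is a read divided by the size factor of its library. Of 6 immune markers, 1 (Cd68) was in the table, at 21.4 to 29.6 against 24.8 to 51.5. Mammary epithelial markers (5 of 6 in the table; Epcam and Krt5 had no control read) summed to 6.73 to 20.04 scaled reads in controls and 68.3 to 123 in MRTFA libraries. Endothelial and fibroblast markers (5 of 7 in the table) summed to 471 to 1083 and 556 to 989. In RNA from bulk cultures, fewer cells of a type and less RNA per cell cannot be told apart.

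The transcript named for the transgene did not separate the groups. Mkl1 (chr15:81012281-81190757) was at 1109, 987 and 950 scaled reads in control replicates 1 to 3, and at 1398, 902 and 1314 in the libraries labelled MRTFA. These values overlapped, and the fitted log2 change of 0.22 ± 0.11 (SE, n = 3 against 3; limma, adjusted p = 0.309) was not called. In the E0771 libraries the same gene was 3.34 higher on the log2 scale with MRTFA. The sources used here do not say whether transgene reads fall under Mkl1, and this check did not separate the B16F10 groups. Mkl2 changed by 0.23 (adjusted p = 0.168). Srf was at 1315, 1520 and 1576 in controls and at 2067, 1553 and 2369 with MRTFA, a log2 change of 0.42 with an adjusted p of 0.0604. It passed the threshold without MRTFA replicate 2 (0.60) or without control replicate 2 (0.54). Elk1, an SRF partner of the ternary complex factor family, was the 1 called member of the 7 MRTF-SRF and partner factors tested, at 0.31 (adjusted p = 0.0269). It lost the call without replicate pairing and in 5 of the 6 fits that left out 1 library (MRTFA 1 or 3, control 1, 2 or 3; 0.25 to 0.35). "The MRTFA libraries" below means those so labelled.

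Across the transcriptome the called gains were larger than the called losses, a gap that the filter on low values favours. Of 13517 genes tested, 855 (6.33%) were called, meaning a Benjamini-Hochberg adjusted p under 0.05 in limma with equal replicate numbers as a block. Of these, 538 (3.98%) were higher and 317 (2.35%) lower in MRTFA libraries. At least 2-fold differences were found in 282 of the higher and 48 of the lower genes, and at least 16-fold in 83 and 0. Of the 282, 147 had a control mean under 10 scaled reads. Such genes could enter the test only through another group and had little room to fall, so these counts do not weigh gains and losses evenly. The median log2 change was 1.06 among called-higher genes, also with the 33 genes that had no control read set at their bound, -0.39 among called-lower genes and -0.01 over all genes tested. Each of the 538 and 317 had the same sign in all 3 replicate pairs, which a call in the blocked test of the same libraries favours in advance. The 3 MRTFA and 3 control values did not overlap in 401 of the 538 and 201 of the 317, against 923 (6.83%, higher) and 823 (6.09%, lower) of all genes tested. The genes called higher took 2.22% of reads in controls and 3.58% in MRTFA libraries.

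The count of calls rested on the pairing and on single libraries. Without the block 209 genes were called (181 higher, 28 lower), all of them among the 855. With the block but only the 6 MRTFA and control libraries in the fit, 788 were called, 706 of them among the 855. With 1 library left out, the count was 288 without MRTFA replicate 1, 268 without MRTFA replicate 2, 436 without MRTFA replicate 3, and 416 without control replicate 1 and again without control replicate 2. It was 1597 without control replicate 3. Apol10b, Cav3, Col3a1, Cryaa, Dnase1l3, Fas, Fbn1, Krt19, Myl1 and Plac8, described below, reached 10 scaled reads only in the 3 MRTFA libraries and left the test whenever 1 MRTFA library was left out. Control replicate 3 was the highest control for 346 of the 538 called-higher genes and the lowest control for 202 of the 317 called-lower genes, that is, nearest to the MRTFA side in most of them.

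**Figure D1:**
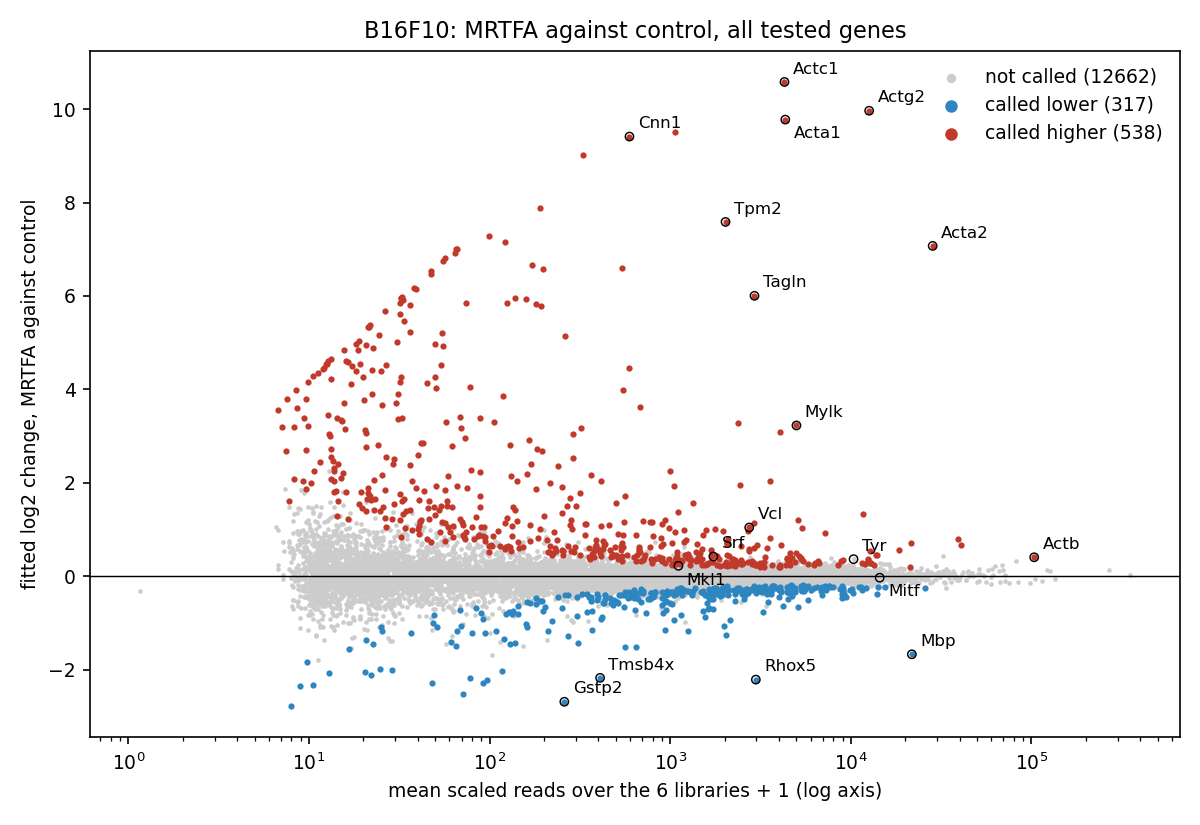
Fitted log2 change of MRTFA against control (vertical axis) for the 13517 tested genes against the mean scaled reads over the 6 libraries plus 1 (horizontal log axis); red marks the 538 genes called higher, blue the 317 called lower, and circles the labelled genes. The higher genes reach 10.58 and the lower ones -2.78; Mkl1, Srf, Tyr and Mitf are not called.

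The calls differed with the control level of a gene. Of 498 tested genes with a control mean under 10 scaled reads, 147 were called higher and none lower, but these genes could enter the test only through another group. Among 2631 genes at 10 to 100, 123 were higher and 24 lower. Among 4163 genes at 100 to 1000, 132 were higher and 101 lower. Among the 6225 genes at 1000 or more, 136 were higher and 192 lower, and 9 and 6 of these reached 2-fold. Of the called genes, 516 of the higher and 309 of the lower were protein coding.

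The list counts that follow are to be read against the 3.98% of all genes called higher and the 2.35% called lower. Groups said not to overlap are to be read against 6.83% (higher) and 6.09% (lower) of all genes. List members named for a low adjusted p were favoured in advance to separate in this way. Smooth muscle contractile genes had the largest median change of the 26 gene lists described. Of 18 tested, 14 rose and none fell, with a median log2 change of 3.43 (13 rose without the block). Actg2 (chr6:83512905-83536265), enteric smooth muscle actin, was at 18.3, 11.7 and 60.1 scaled reads in controls and at 28906, 17741 and 29100 with MRTFA. Its mean rose 841-fold, a fitted log2 change of 9.97 ± 0.43 (SE, adjusted p = 1.21e-06). Acta2 (chr19:34241090-34255590), the vascular smooth muscle actin, went from 463, 176 and 798 to 58811, 37313 and 72885 (118-fold, 7.07 ± 0.41). In both genes control replicate 3 was the highest control. Both are among the 15 largest increases, which were taken from called genes whose groups did not overlap, so that separation is not a finding.

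RNAs of several proteins that bind or act on actin filaments rose too. Myh11 (chr16:14194535-14291372), smooth muscle myosin heavy chain, was at 1.92, 2.92 and 0.954 in controls and at 2536, 1378 and 2493 with MRTFA. Cnn1 (chr9:22099216-22109630), calponin, which binds actin and damps myosin ATPase, went from 0, 0 and 3.82 to 1325, 799 and 1437. Tpm2 (chr4:43514711-43523765), beta-tropomyosin, went from 17.3, 5.84 and 65.9 to 4434, 2731 and 4893, a 135-fold rise. All 3 were near zero or low in each control and high in each MRTFA library. Tagln (chr9:45929619-45936058), transgelin, an actin-crosslinking marker of smooth muscle, was at 55.8, 43.8 and 265 against 5796, 4425 and 6982, which is 47.1-fold. Kcnmb1, the beta subunit of the BK potassium channel of smooth muscle, had 3 control reads in all against 1148 with MRTFA. Its ratio of reads was 396, with a 95% counting interval of 135 to 1925.

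Mylk (chr16:34745210-35002420), the myosin light chain kinase that starts smooth muscle contraction, had the lowest adjusted p of the response (1.79e-07). It was at 886, 646 and 1412 in controls and at 8414, 6560 and 12098 with MRTFA, a log2 change of 3.23 ± 0.10. The 3 replicate pairs shifted by 3.25, 3.34 and 3.10 although the replicates within a group differed. Myl9 (chr2:156775420-156781658), the regulatory light chain that this kinase phosphorylates, was at 482, 426 and 2172 against 6872, 3684 and 10678. No MRTFA value fell below a control value. Its log2 change of 3.08 (adjusted p = 1.23e-05) relied on the pairing, since the adjusted p was 0.0683 without the block. Lmod1, a leiomodin that nucleates actin filaments in smooth muscle, went from 105, 70.1 and 122 to 1363, 770.8 and 1662. Synpo2, Aoc3, Synm and Nexn completed the called members (5.21, 2.96, 1.89 and 0.72 on the log2 scale), and desmin (Des) was not called at 0.08.

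**Figure D2:**
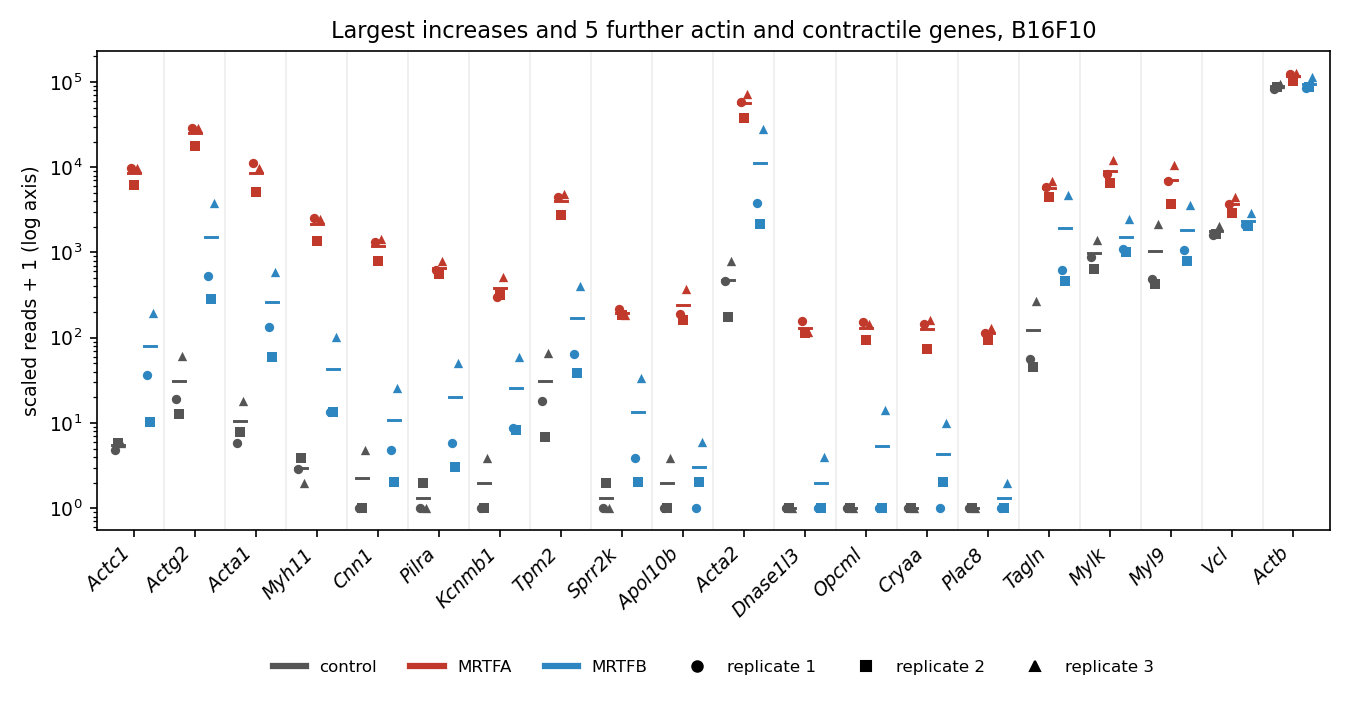
Scaled reads plus 1 (log axis) in each B16F10 library for the 15 largest increases and for Tagln, Mylk, Myl9, Vcl and Actb; grey is control, red MRTFA and blue MRTFB, symbols mark the replicate and bars the group mean. In all 15 every MRTFA library lies above every control, which their selection required. Examples are 144 against 0 in Cryaa and 58811 against 463 in Acta2, both in replicate 1. Actb differs little.

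Genes of striated muscle rose as well, from next to nothing. Of 15 tested, 9 rose and none fell, with a median of 2.84 (unchanged with the 2 genes without control reads set at their bound). The count was 3 without any single MRTFA library, a setting under which genes expressed in MRTFA libraries alone leave the test, and 4 at a minimum value of 50. Actc1 (chr2:114047282-114053548), cardiac alpha-actin and the largest increase of the named genes, went from 3.85, 4.87 and 4.77 scaled reads to 9686, 6148 and 9915. Acta1 (chr8:123891769-123894751), skeletal alpha-actin, went from 4.81, 6.82 and 17.2 to 11111, 5114 and 9773. The means rose 1909-fold and 903-fold, with log2 changes of 10.58 ± 0.60 and 9.78 ± 0.42. Muscle actins have near-identical coding sequences, so reads of one could be split among the others in the authors' counting.

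The other striated muscle genes that rose reached far lower levels than these actins. Ckm, muscle creatine kinase, reached 88.7, 52.8 and 110 from 1.92, 3.89 and 5.73. Myl1, a fast skeletal myosin light chain, had 1 control read against 213, a ratio of 221 with an interval of 39.2 to 8754. Tnnt3 (fast troponin T) and Myh6 (alpha myosin heavy chain) had no control read, and were at least 42.8-fold and 35.9-fold higher against 3 reads over the control group. Myom1, an M-band protein, was at 9.62, 6.82 and 11.5 against 84.7, 47.6 and 90.6. Fitted log2 changes of genes with so few control reads depend on the 1 added to each value and are not bounds.

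Actin cytoskeleton genes known as MRTF-SRF targets rose by smaller steps. Of 37 tested, 18 rose and none fell, with a median of 0.29 against -0.01 over all genes. Without the block 5 of the 18 passed, and with 1 library left out 14 to 18 did. Vcl (chr14:20929398-21033676), vinculin, which links integrins to actin, was at 1593, 1669 and 2065 in controls and at 3748, 2872 and 4483 with MRTFA. Every MRTFA library exceeded every control, and the log2 change was 1.04 ± 0.08 (adjusted p = 3.72e-05). Tpm1 (chr9:67022590-67049406), alpha-tropomyosin, went from 28458, 28157 and 29085 to 49332, 43532 and 57207, a 1.75-fold rise. Cnn2, Lpp and Flna (filamin A, an actin crosslinker) rose by 1.04, 0.79 and 0.66 with the block only, their unblocked adjusted p being 0.431, 0.391 and 0.254.

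The cytoplasmic actins changed least among the actins named here. Actb (chr5:142903115-142906754) was at 82674, 88300 and 95887 in controls and at 124173, 101721 and 129090 with MRTFA. The groups did not overlap, but the log2 change was 0.41 (adjusted p = 0.024), and it was not called without the block (0.352) or without MRTFA replicate 1 (0.30), 2 (0.48) or 3 (0.44) or control replicate 1 (0.37). Actg1 rose by 0.57 (adjusted p = 0.0012; 0.067 without the block). The largest steps of the actin cytoskeleton list were those of Fhl1 and Cobl. Fhl1, a LIM-domain protein of muscle, was at 15.4, 6.82 and 6.68 against 759, 643 and 1825. Cobl, an actin nucleator, was at 0.962, 3.89 and 22.0 against 399, 255 and 397. Palld came next among the called members at 1.79, with means of 137 in controls and 491 with MRTFA. Its limma adjusted p was 0.0025, and 0.0704 without the block.

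Adhesion and matrix genes rose in part. Among 26 integrin and focal adhesion genes 7 rose and none fell (1 without the block; 5 to 11 with 1 library left out, the 11 without control replicate 3). Itga1 (chr13:114953096-115101964), the collagen-binding integrin alpha-1, was at 615, 604 and 786 in controls against 1752, 1700 and 2550. This 3.0-fold difference was many times its standard error (log2 1.57 ± 0.08, adjusted p = 1.52e-06). Itga5, the fibronectin receptor alpha-5, went from 1964, 1778 and 1627 to 4458, 2772 and 4904 (1.14 ± 0.18; adjusted p = 0.00316, and 0.0788 without the block). Tns1 and Tes, both focal adhesion proteins, rose by 0.63 and 0.41 with the block only (0.121 and 0.483 without).

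Of 26 extracellular matrix genes, 10 rose and 1 (Thbs2) fell, and 2 rose without the block. The number that rose was 5, 3 and 7 without MRTFA replicates 1, 2 and 3. Col3a1 (chr1:45311538-45349706), the fibrillar collagen III chain, was at 4.81, 0.974 and 4.77 against 270, 149 and 316. Fbn1, the microfibril protein fibrillin-1, was at 1.92, 1.95 and 7.64 against 87.7, 69.3 and 147. These were the 2 that passed without the block, and their groups were far apart. Tnc, tenascin-C, was at 13.5, 2.92 and 45.8 against 565, 357 and 589 (5.15; unblocked adjusted p = 0.0566). Col12a1 rose by 2.17 (0.227 unblocked).

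The plasminogen system, which controls pericellular proteolysis, rose in 4 of 6 genes tested, with a median of 1.54 and none passing without the block. Plau (urokinase) was at 45.2, 38.0 and 94.5 in controls against 287, 174 and 328. Its receptor Plaur was at 472, 525 and 690 against 1263, 895 and 1581. Neither pair of groups overlapped. Serpinb2 had 2 control reads against 96, a ratio of 49.7 with an interval of 13.4 to 416, and lost its call without MRTFA replicate 1 (4.45) or 2 (3.63).

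Among caveola genes, which shape flask-like membrane pits, 4 of 7 rose (2 without the block; 3 to 5 with 1 library left out). Cav1 (chr6:17306335-17341452), the main coat protein, was at 329, 222 and 502 against 1459, 1245 and 2204 (2.25 ± 0.21; unblocked adjusted p = 0.0625). Sdpr (cavin-2) differed little between replicates, at 2255, 2268 and 2145 against 3140, 3339 and 3185, a 1.45-fold rise. Ptrf (cavin-1) rose by 0.67 (0.39 unblocked), and Cav3, the muscle caveolin, had 3 control reads against 177, a ratio of 61.1 (20.6 to 299).

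YAP-TAZ targets, which overlap in part with SRF targets, rose in 6 of 19 genes tested (1 without the block; 4 without MRTFA replicate 2, 5 or 6 without each other library), and the list median was 0.08. Ankrd1, a cardiac ankyrin repeat protein and the member that passed without the block, was at 2.89, 1.95 and 10.5 against 305, 265 and 364. Ctgf (chr10:24595442-24598683), a matricellular growth factor, was at 796, 1037 and 2654 against 4123, 4229 and 8625. Its groups did not overlap and its log2 change was 2.03 ± 0.21 (adjusted p = 0.000243), yet without the block the adjusted p was 0.258. Cyr61, its relative, was at 1979, 1998 and 3758 against 3745, 3345 and 6604; control replicate 3 exceeded 2 MRTFA libraries, and 0.83 ± 0.09 (0.000433) became 0.583 unblocked. Amotl2 rose by 0.68 (0.262 unblocked).

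Among the 15 largest increases were genes of no contractile role. Pilra, an inhibitory immune receptor, had 1 control read and 623, 561 and 792 scaled reads in MRTFA libraries. Its ratio of reads was 2062, with a counting interval of 370 to 81486. Sprr2k, of a cornified envelope family, had 1 control read against 588 (609, interval 109 to 24094). Apol10b, an apolipoprotein L gene, had 3 against 731 (252, interval 86.0 to 1227). Dnase1l3 (an extracellular nuclease), Opcml (a GPI-anchored cell adhesion protein), Cryaa (a lens chaperone) and Plac8 had no control read in any of the 3 libraries. Against 3 reads over the control group they were at least 133-fold, 135-fold, 132-fold and 116-fold higher. All these were called with and without the block, and MRTFA replicate 2 was the lowest MRTFA library in 14 of the 15 increases. Opcml was not called by DESeq2 on the recovered reads. The mammary epithelial markers that rose (3 of 4 tested) were keratins, of which only Krt19 was called without the block (adjusted p = 0.172 for Krt7 and 0.227 for Krt14). Krt19 had no control read and was at 24.2, 12.4 and 29.6 (at least 23.1-fold). Krt7 was at 0.962, 3.89 and 3.82 against 56.5, 30.0 and 85.8, and Krt14 at 3.85, 2.92 and 14.3 against 26.2, 14.5 and 28.6. Krt14 was not called by edgeR or DESeq2 on the recovered reads either. Krt7 was not called without MRTFA 1 or 2 or control 1 (3.12 to 4.15), nor Krt14 without MRTFA 1, 2 or 3 or control 1 or 2 (1.4 to 2.02). Epcam and Krt5 stayed at means of 1.33 and 2.99 with MRTFA, and the part of other cells in these keratins was not tested.

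The 15 largest decreases were taken from called genes whose groups did not overlap, so the separation of their groups is not a finding. Gstp2 (chr19:4040285-4046023), a glutathione transferase, fell from 788, 447 and 143 scaled reads to 58.5, 44.5 and 69.6. Rhox5 (chrX:37804842-37808876), a homeobox gene of the reproductive cluster on the X chromosome, fell from 5784, 6682 and 2424 to 981, 1228 and 780. Pir (pirin, an iron-binding nuclear protein) fell from 216, 203 and 64.9 to 29.2, 41.4 and 21.9. In all 3 genes control replicate 3 was the lowest control yet above every MRTFA library. The log2 changes were -2.69 ± 0.41, -2.21 ± 0.20 and -2.21 ± 0.25. Control replicate 3 was the lowest control in 13 of the 15 largest decreases.

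Tmsb4x (chrX:167207093-167209315), thymosin beta-4, the main sequestering protein of monomeric actin, fell from 669, 561 and 757 to 101, 128 and 235 (-2.17 ± 0.25, adjusted p = 0.000414). The call held without the block (0.0459). Dppa2, a pluripotency factor, was at 190, 239 and 138 against 42.3, 50.7 and 41.0. Ptpn13, a tyrosine phosphatase, was at 125, 175 and 80.2 against 28.2, 21.7 and 28.6. Jup (chr11:100368958-100397763), plakoglobin of cell junctions, was at 869, 1075 and 567 against 298, 237 and 317. Mbp (chr18:82475146-82585637), myelin basic protein, was at 44394, 40480 and 16472 against 11145, 9870 and 8350, and Slit2, a guidance ligand, at 2943, 3449 and 2210 against 1133, 1084 and 1325.

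The other named decreases were Pcdhgb1 (-2.28), Fam178b (-1.52), Mogat1 (-1.45), Gpat2 (-1.41), Sorcs2 (-1.34) and Rhox2d (-1.28). Gstp2 (-2.56), Jup (-1.30) and Mbp (-1.67) lost their calls without MRTFA replicate 2. Pcdhgb1 (-2.28 to -1.86), Mogat1 (-1.58 to -1.25), Gpat2 (-1.35 to -1.10) and Rhox2d (-1.22 to -1.0) lost theirs without MRTFA 1 or 2 or control 1 or 2, and Sorcs2 also without MRTFA 3 (-1.45 to -0.97). Pcdhgb1, Gpat2, Sorcs2 and Rhox2d were not called without the block (adjusted p = 0.075, 0.114, 0.12 and 0.0516). Gstp2, Tmsb4x, the Rhox genes and the protocadherin cluster have close copies or shared exons, so their reads are uncertain.

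**Figure D3:**
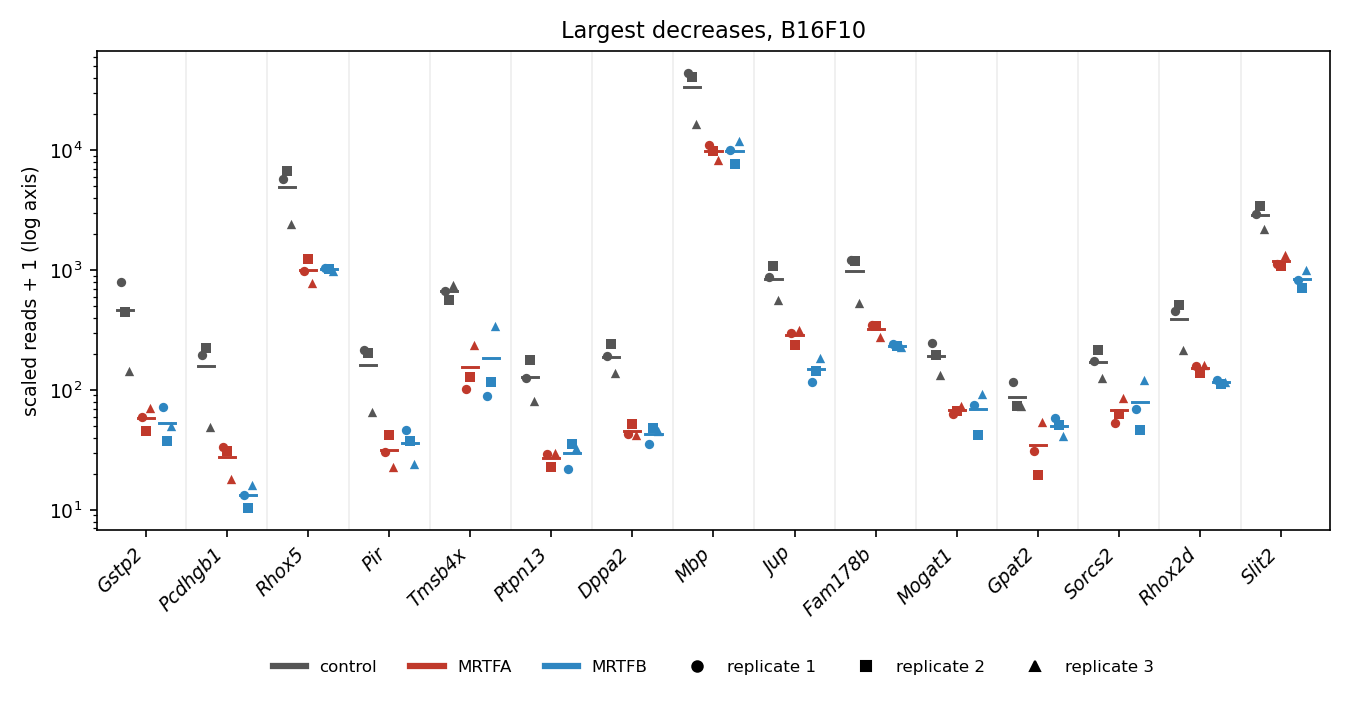
Scaled reads plus 1 (log axis) in each B16F10 library for the 15 largest decreases; grey is control, red MRTFA and blue MRTFB, symbols mark the replicate and bars the group mean. Control replicate 3 (triangles) is the lowest control in 13 of the 15. Every MRTFA library lies below all controls, which the selection of these genes required. Every MRTFB library does so too, which a choice of genes high in the same controls favours.

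The enzymes of sterol synthesis fell together by small amounts. Of 22 genes tested, 15 fell (68.2%, against 2.35% of all genes) and none rose, with a median log2 change of -0.32. Msmo1 (chr8:64718139-64733792), a C4-methylsterol oxidase, was at 4057, 4321 and 4054 in controls and at 2475, 2743 and 3287 with MRTFA (-0.56 ± 0.08, adjusted p = 0.00204). Mvd, mevalonate decarboxylase, was at 1286, 1167 and 975 against 802, 494 and 716. Lss, lanosterol synthase, was at 3186, 2920 and 2777 against 2333, 2135 and 2219, and Pmvk, phosphomevalonate kinase, at 863, 736 and 721 against 624, 494 and 547. None of these 4 overlapped between groups, against 6.09% of all genes on the lower side. They were named for their low adjusted p in the same libraries, which favours such separation, so this adds no support. Msmo1 was the 1 member that passed without the block. With 1 library left out the count was 6, 7 and 11 without MRTFA replicates 1, 2 and 3, 8 and 7 without control replicates 1 and 2, and 17 without control replicate 3. With MRTFB against the same controls 12 of the 22 fell and none rose.

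Genes that mark pigment cells did not separate the groups: of 19 melanocyte genes none was called, with a median of 0.07. Tyr, tyrosinase, was at 7183, 7469 and 12991 in controls and at 9718, 12146 and 12656 with MRTFA, which overlapped (0.37, adjusted p = 0.251). Without control replicate 3 it was called at 0.65. Mitf, the lineage transcription factor, was at 15877, 11745 and 16398 against 15268, 13205 and 14244 (-0.03, adjusted p = 0.902).

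Interferon response genes differed between replicate pairs. Of 26 tested, Gbp2 rose and Stat2 fell. The list median was -0.32, but it was -0.63 and -0.48 in pairs 1 and 2 and 0.34 in pair 3. Without control replicate 3, 19 of the 26 were called lower. Irf7, an interferon-induced transcription factor, showed the pattern: 91.4, 42.8 and 166 in controls against 18.1, 21.7 and 244 with MRTFA, and it was not called (-0.89, adjusted p = 0.291). Gbp2, a guanylate-binding protein, was at 828, 691 and 1709 against 1520, 1372 and 2991, higher in each pair (0.89 ± 0.08, adjusted p = 7.06e-05; 0.618 unblocked). Stat2 fell by 0.44 on the log2 scale (0.83 unblocked). Leaving out MRTFA 1 or 2 or control 1 or 2 ended its call (-0.43 to -0.34).

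Genes through which lymphocytes sense tumour cells, or tumour cells resist them, gave counts to be read against the 6.33% of all genes called. Of 16 MHC class I presentation genes Tap2, a peptide transporter subunit, rose (0.87), with replicate 3 highest in both groups (140 and 259); it was lost unblocked (0.875) and without MRTFA replicate 1 (0.83). Of 8 activating and adhesion ligands tested, Fas, the death receptor, rose from 1.92, 3.89 and 9.54 to 67.6, 43.5 and 54.4. Raet1d, a ligand of NKG2D, fell from 375, 419 and 369 to 158, 225 and 281 (-0.84 ± 0.15). Neither overlapped, though Raet1d was not called unblocked (0.0737), without MRTFA replicate 2 (-0.86) or without control replicate 1 (-0.73). Of 10 inhibitory ligands and resistance genes Cd47, the signal against phagocytosis, rose by 0.44 (0.317 unblocked; 0.40 and not called without MRTFA replicate 2).

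Other programmes had few called members, to be read against the 6.33% of all genes called. No ribosomal protein gene of 24 and no p53 target of 16 was called. Among 28 cell cycle genes Ccnd1 rose (0.32) and Mcm5 fell (-0.27). Among 25 genes each of glycolysis and of the respiratory chain, Hk2 fell (-0.22) and Uqcrc1 rose (0.24). Of 21 ATF4 stress genes Shmt2 (-0.30) and Atf5 (-0.35) fell, and of 12 mesenchymal transition genes Tgfb3 rose (0.73) and Cdh2 fell (-0.23). Among 24 immediate early genes, direct responders to growth signals, Egr2, Fosl2 and Atf3 rose (1.62, 0.45 and 0.60) and Klf4, Ier3 and Nr4a3 fell (-0.65, -0.52 and -0.50). None of these 14 genes passed without the block. Tgfb3 kept its call whichever library was left out, and Klf4 lost its call only without MRTFA replicate 2 (-0.61). The others named in this paragraph, apart from Fosl2 and Atf3, which were not followed singly, lost theirs without at least 3 of the 6 libraries. Ccnd1 was lost without MRTFA 1 (0.28) or 2 (0.30) or control 1 (0.26) or 2 (0.29), and Egr2 without MRTFA 1 (1.4) or 3 (1.45) or control 1 (1.45). Nr4a3 was lost without MRTFA 1 (-0.46) or 2 (-0.40) or control 1 (-0.51) or 2 (-0.50). Ier3 was lost without MRTFA 2 (-0.46) or 3 (-0.47) or control 1 (-0.54) or 2 (-0.42). Without any 1 library other than control replicate 3, no call was left for Mcm5 (-0.30 to -0.21), Hk2 (-0.26 to -0.17), Uqcrc1 (0.17 to 0.28), Shmt2 (-0.37 to -0.22), Atf5 (-0.42 to -0.26) or Cdh2 (-0.28 to -0.17).

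**Figure D4:**
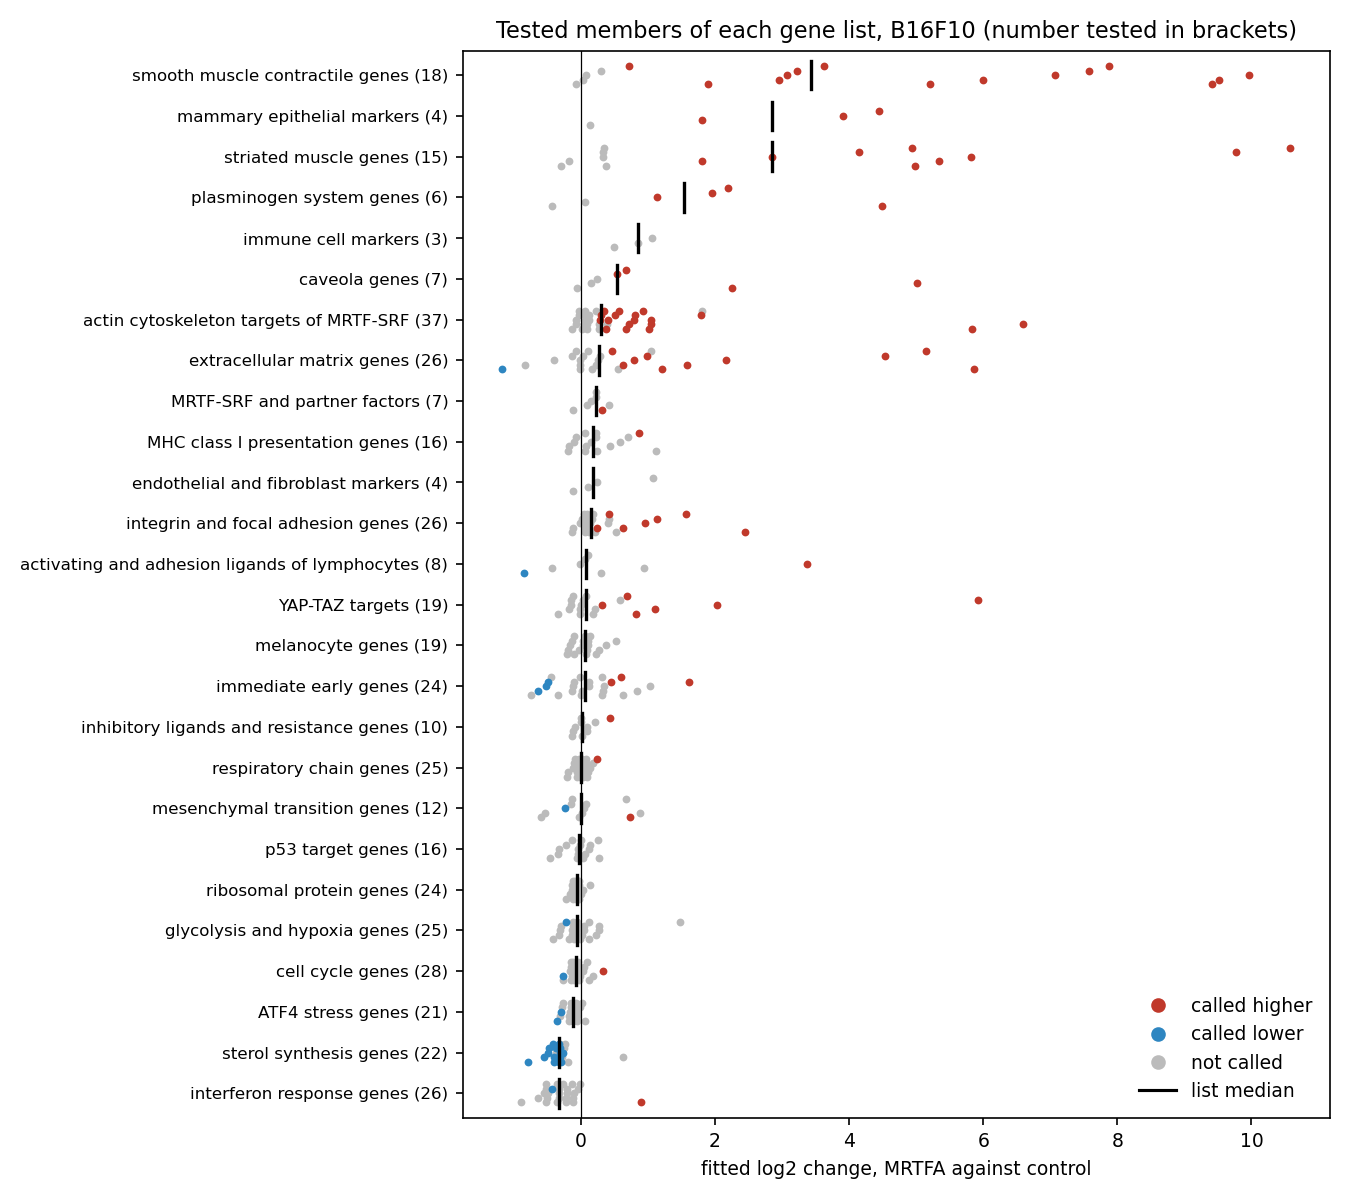
Fitted log2 change of MRTFA against control (horizontal axis) for each tested member of the 26 gene lists (rows, with the number tested); red points are called higher, blue called lower and grey not called, and the black bar is the list median. Smooth muscle (3.43) and striated muscle (2.84) genes extend far to the right, while all but 1 of the sterol synthesis genes (-0.32) lie in a narrow band left of 0.

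MRTFB in the same line gave a different set of values against the same 3 controls, which both comparisons share. With MRTFB, 603 genes (4.46%) were called, 220 (1.63%) higher and 383 (2.83%) lower. MRTFA was then set directly against MRTFB. This called 359 genes (2.66%), of which 346 (2.56%) were higher and 13 (0.0962%) lower with MRTFA. The count was 148 without the block, 161, 155 and 166 without MRTFA replicates 1, 2 and 3, and 222 and 233 without MRTFB replicates 1 and 2. It was 239 at a minimum value of 50.

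Contractile genes differed between the coactivators. Of 18 smooth muscle genes tested 14 were called for this difference, and of 15 striated muscle genes 9, all higher with MRTFA, with list medians of 2.74 and 2.35. The mammary epithelial list, with 2 of 4 called, had a median of 2.43. Actc1 was at 35.3, 9.32 and 195 scaled reads with MRTFB, far under the 6148 or more of each MRTFA library and 7.65 ± 0.60 lower on the log2 scale. Cnn1 was at 3.81, 1.04 and 25.1 with MRTFB (difference 7.5 ± 0.47). Acta2 was at 3856, 2146 and 28018, so MRTFB replicate 3 came close to the lowest MRTFA library (37313). Apol10b, Plac8 and Dnase1l3 had at most 5.01, 1.0 and 3.01 scaled reads in any MRTFB library and were the other 3 of the 5 largest differences upward. DESeq2 on recovered reads did not call the Dnase1l3 difference (adjusted p = 0.0514).

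Among the 13 genes lower with MRTFA, the 5 largest were Slc7a2, Sgpp2, Piwil2, Lgr6 and Plat, none of which was called against control. Slc7a2, a cationic amino acid transporter, was at 29.5, 31.1 and 18 with MRTFB, had no read in any MRTFA library and 1 in controls. Sgpp2, a sphingosine phosphatase, was at 61.0, 83.9 and 63.1 with MRTFB against 18.1, 26.9 and 22.9 with MRTFA. Lgr6, a receptor of R-spondins, was at 126, 174 and 474 against 61.5, 84.8 and 182. Plat, tissue plasminogen activator, was at 173, 177 and 319 against 92.8, 113 and 211. Piwil2, Lgr6 and Plat lost these calls without the block (adjusted p = 0.812, 1.0 and 1.0). Plat (-0.78 to -0.59) also lost its call without any 1 MRTFA library or without MRTFB 1 or 2, and so did Sgpp2 (-1.54 to -1.43) and Piwil2 (-1.31 to -1.16), except that both kept it without MRTFA 2. For the sterol list the difference had a median of -0.01 and no call. For the largest decreases the values lay close: Rhox5 was at 1041, 1028 and 981 with MRTFB, Mbp at 10112, 7599 and 11922, and Tmsb4x at 88.6, 116 and 342. The fitted differences for these 3 were -0.05, 0.00 and -0.07, none called, with 95% intervals of -0.50 to 0.40, -0.60 to 0.60 and -0.62 to 0.47.

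In the E0771 mammary line, under the same construct label and treatment, a larger share of genes was called. The change of Mkl1, not called in B16F10, was 3.12 more positive on the log2 scale in E0771. The part of transgene level in the difference between lines was not tested. In E0771 6405 of 13189 genes (48.6%) were called, 3237 (24.5%) higher and 3168 (24%) lower. The difference between the lines in the effect of MRTFA was tested in 1 fit of all 18 libraries and called 5165 of 14859 genes (34.8%), with 2726 (18.3%) more positive in E0771 and 2439 (16.4%) more positive in B16F10. Of the 538 genes called higher in B16F10, 382 were also higher in E0771, which is 71.0% of the B16F10 list and 11.8% of the E0771 list, and 19 were lower there. Of the 317 called lower, 82 were also lower in E0771 (25.9% of the B16F10 list and 2.59% of the E0771 list), and 60 were higher.

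The actin cytoskeleton targets differed most evenly between lines: 34 of 37 rose in E0771 with a median of 1.74 against 0.29 in B16F10, and 33 of the 37 differences were called, all more positive in E0771. Vcl rose by 2.57 in E0771 and 1.04 in B16F10 (difference 1.52 ± 0.19). Actb differed by 1.08 ± 0.15 and Ctgf by 2.98 ± 0.28. Myl9 had a mean of 499 ± 82.4 (SD, n = 3) in E0771 controls and 1027 ± 992 in B16F10 controls, and rose further in E0771 (difference 3.03 ± 0.33). Of 18 smooth muscle genes, 9 also had a called difference more positive in E0771, and for 3 the order was the reverse. Of 15 striated muscle genes, 6 differences were called, all more positive in E0771. Tpm2 was at 4116 ± 421 in E0771 controls against 29.7 ± 31.9 in B16F10 controls, and its change in E0771 minus that in B16F10 was -4.796 on the log2 scale (SE 0.54, adjusted p = 3.18e-05). The same differences for Cnn1 and Acta2 were -3.34 and -1.84, again with higher control means in E0771. The Acta2 difference was not called without the block (adjusted p = 0.183), nor without B16F10 MRTFA 1 or 2, B16F10 control 2 or 3, or E0771 control 1 (-1.76 to -1.44). For Acta1 and Tagln no difference between lines was called, with 95% intervals of -1.02 to 1.99 and -0.61 to 1.81.

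Jup and Tmsb4x went in opposite directions in the 2 lines. Jup fell by 1.52 on the log2 scale in B16F10 and rose by 3.03 in E0771, from control means of 837 ± 256 and 566 ± 160. Tmsb4x fell by 2.17 in B16F10 and rose by 2.53 in E0771, from 662 ± 98.2 and 2655 ± 648. The tests of the differences gave 4.55 ± 0.33 (adjusted p = 8.07e-07) and 4.70 ± 0.32 (5.21e-07). Mbp, which fell in B16F10, showed no called difference between lines (0.51, interval -0.30 to 1.32). Interferon response genes also differed: 16 of 26 rose in E0771, and 17 of 26 differences were called, all more positive in E0771.

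**Figure D5:**
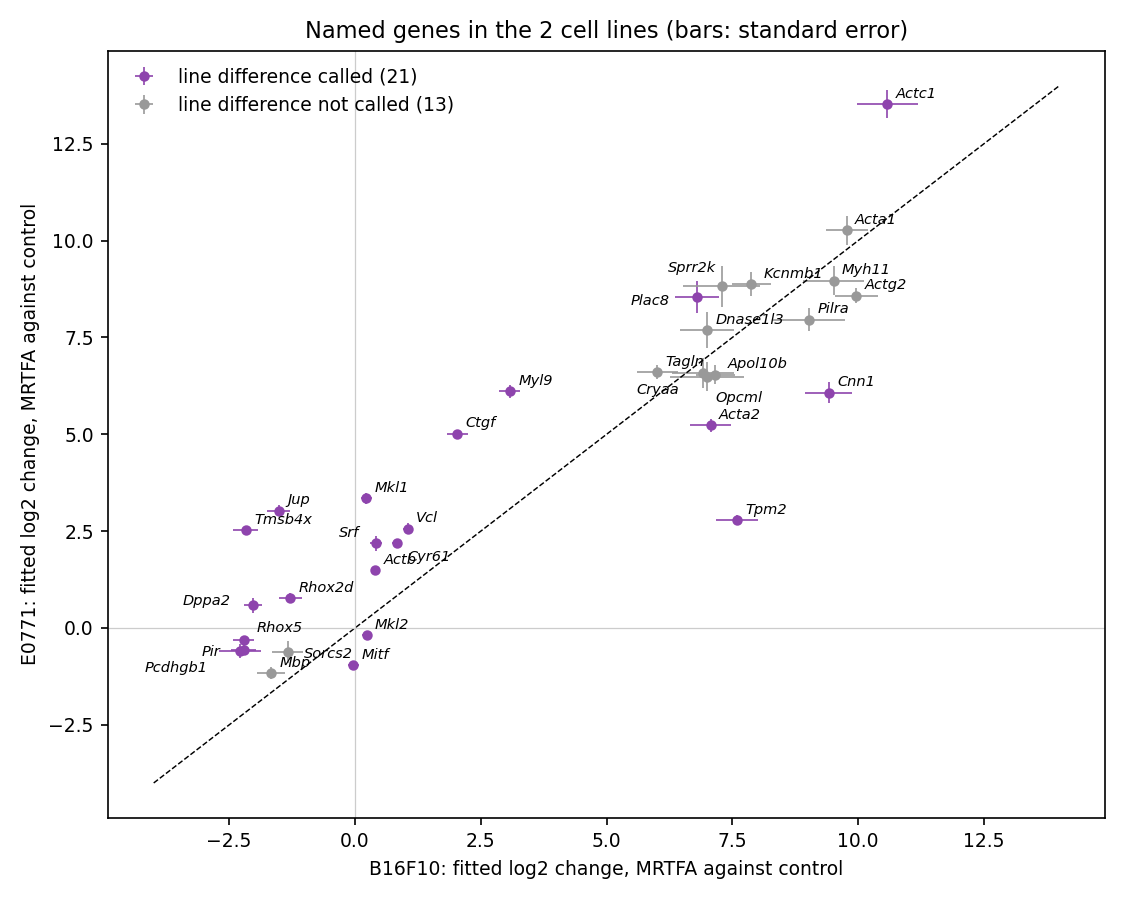
Fitted log2 change of MRTFA against control in B16F10 (horizontal axis) and in E0771 (vertical axis) for the 34 largest changes and well-known targets tested in both lines; bars are standard errors, the dashed line marks equal changes, and purple marks the 21 genes whose difference between lines was called. Jup and Tmsb4x lie left of 0 and above 0, and Tpm2 lies far below the dashed line.

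The elements shown in 5 promoters were then counted over all tested genes. A RefSeq window (250 bases before to 50 after the start) was found for 9983 of the 13517 tested genes, 416 of them through an older symbol. A CArG box, searched by its name's standard letters, was present in 165 of them (1.65%) and in 1.36% of all windows of that length. It was present in 41 of the 419 called-higher genes with a window (9.79%), in 4 of the 241 called lower (1.66%) and in 120 of the 9323 not called (1.29%). Among called-higher genes the share was 12.6% (26 of 207) for at least 2-fold and 17.7% (11 of 62) for at least 16-fold. Among genes at least 2-fold lower it was 5.56% (2 of 36). Of the 15 largest increases, Actg2, Myh11 and Dnase1l3 had no window and were not searched. The same held for Sorcs2, Mbp, Dppa2 and Pcdhgb1 among the 15 largest decreases. Among the increases with a window, Actc1 and Acta1 held a box. Acta2, Cnn1 and Tpm2 held none in this window, and among the largest decreases Gstp2 and Rhox2d held one. The TEAD core GGAATG was present in 24.3% of called-higher genes against 14.5% of all genes with a window. Called-lower genes held it in 11.6%. At 2-fold or more the TEAD core was in 25.1% of higher and 11.1% of lower genes. The AP-1 motif TGANTCA was present in 9.07% of called-higher, 9.54% of called-lower and 6.08% of all these genes. The AP-1 motif was present in 22 of the 207 genes at least 2-fold higher (10.6%) and in 8 of the 36 at least 2-fold lower (22.2%). At 16-fold or more it was in 8 of 62 higher genes (12.9%). The E-box CACGTG was present in 11.2%, 14.1% and 12.0%. Both strands were searched, and matches of different motifs were counted separately.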

How the data were processed

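RNA of 18 libraries was measured, and samples were grouped by the line, construct and replicate number in their titles (0 value columns had no sample). The submitters' processing notes name cutadapt 1.6, STAR 2.5.0a, HTSeq 0.5.3, DESeq and the build mm10. The sources used here give no annotation release, strandedness or counting mode, so reads of overlapping, antisense or near-identical genes cannot be told apart. The deposited signal per gene is the authors' read count divided by a size factor. Every value was a whole multiple of a step in its library (tolerance 0.001), so reads were recovered for 100% of values.

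The test was limma 3.58.1 (R 4.3.3) with a trend on log2(signal + 1), for 13517 of 18909 genes at 10 or more in at least 3 libraries. The 9 B16F10 libraries entered with group and replicate number as terms, two-sided, with Benjamini-Hochberg adjustment at 0.05. This is a log2 scale with a pseudocount of 1, which understates the change of low genes. On simulated data the blocked test made more false calls than its nominal rate, so the count of blocked calls may be too high. The difference between lines came from the 18 libraries with replicate within line as a block.

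Same-numbered libraries deviated together: deviations from the group means correlated at 0.353, 0.416 and 0.567 between MRTFA and control replicates 1, 2 and 3, and each MRTFA library correlated best with its own number. The labels do not say what a number stands for. Gene positions are from GENCODE M21, which matched 18827 identifiers.

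The genes named are Mkl1, Mkl2, Srf and 11 well-known genes, the 15 largest increases and decreases (called, groups not overlapping, mean of 50 or more), up to 4 called members per list by adjusted p, and the 5 largest differences from MRTFB each way. Further list members named in the text were chosen after their values were seen and were not refitted without single libraries. The comparison and the 27 lists (561 entries, 468 tested) were chosen with earlier results of these data known. Of the lists, 26 are reported; 1 list and some single genes are not reported here. Alternatives were edgeR 4.0.16 and DESeq2 1.42.0 on recovered reads, other scalings, pseudocounts and filters, no block, and each library left out.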

Additional observations from a re-analysis of the deposited data

Results flagged for a closer look

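The effect of MRTFA was set side by side in B16F10 and E0771 for the 41 named genes tested in the fit of both lines (limma, 18 libraries, replicate within line as a block). The difference passed the adjusted threshold for 24 of them, 19 with the more positive change in E0771 and 5 with the more positive change in B16F10. Values are the E0771 change minus the B16F10 change on the log2 scale, with 3 libraries in each group.

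Among SRF targets and muscle genes the change was more positive in E0771 for Actc1 (2.95), Myl9 (3.03), Ctgf (2.98), Srf (1.76), Vcl (1.52), Cyr61 (1.38) and Actb (1.08). It was more positive in B16F10 for Tpm2 (-4.796), Cnn1 (-3.34) and Acta2 (-1.84). The genes named for the coactivators differed as well, with Mkl1 at 3.12 and Mkl2 at -0.42, and so did the melanocyte factor Mitf at -0.92.

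Of the 15 largest decreases of B16F10, 10 had a more positive change in E0771. Over all 317 genes called lower in B16F10, the difference was called in that direction for 133 (42.0%), against 18.3% of all 14859 genes tested. Both sets were chosen by their B16F10 change, which this difference subtracts. A more positive value in E0771 was therefore favoured in advance, and these counts are not a finding about the decreases. Tmsb4x differed by 4.70 and Jup by 4.55. Fam178b (3.22), Dppa2 (2.61), Gstp2 (2.496), Ptpn13 (2.40), Rhox2d (2.06), Rhox5 (1.89), Pcdhgb1 (1.69) and Pir (1.64) had differences in the same direction. Fam178b, Gstp2 and Ptpn13 were too low in E0771 to be tested in that line alone, so they had little room to fall there. Plac8, without a control read in B16F10, differed by 1.75.

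Some of these tests depended on a setting or a library. Without the block the differences for Actc1, Acta2, Cyr61, Mkl2, Pir and Pcdhgb1 were no longer called. With edgeR on recovered reads Actc1, Plac8, Ptpn13 and Gstp2 were not called, and the last 3 were not called with DESeq2 either. A pseudocount of 0.5 also ended the call for Plac8. Leaving out single libraries ended the call for Acta2, Actc1, Plac8 and Pcdhgb1. For Actc1 these were B16F10 MRTFA 3, B16F10 control 2 and E0771 control 3 (2.28 to 2.515). For Plac8 they were B16F10 control 2, E0771 MRTFA 1 or 2 and E0771 control 1 (1.44 to 1.61). For Pcdhgb1 they were all but B16F10 control 3, E0771 MRTFA 3 and E0771 control 3 (1.26 to 1.70).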

How the results depend on the processing

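The counts moved with the pairing by replicate number and with single libraries. Without the replicate block 209 genes were called for MRTFA against control in place of 855 (181 higher, 28 lower), and 225 (199 higher, 26 lower) with the 6 libraries alone and no block. For MRTFA against MRTFB 148 were called (146 higher, 2 lower), and for the difference between lines 3138 in place of 5165 (1271 in place of 2439 lower). A minimum value of 50, which tests fewer genes, left 239 calls against MRTFB (229 higher). Of the 90 called named genes, 49 lost the call without the block and 30 lost it without some library. The test covered 73 of the 90 under every setting and library tried, and 24 of these kept the call throughout. The other 17 left the test at least once, and 11 of them kept the call wherever they were tested. Other counts of calls were within 1.5 times the reported ones under edgeR, DESeq2, other scalings, pseudocounts and filters.

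With 1 library left out, MRTFA against control gave 268 to 1597 calls (201 to 918 higher, 57 to 679 lower) and MRTFA against MRTFB gave 155 to 457 (138 to 430 higher, 2 to 27 lower). In E0771 the counts were 4183 to 6217 (2166 to 2981 higher, 2017 to 3236 lower), and for the line difference 3979 to 5552 (2233 to 2825 higher, 1695 to 2727 lower). A fit with 2 libraries in a group has fewer degrees of freedom, and genes read only with MRTFA leave the test by construction. The cause of the other changes was not tested.

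Signs turned only for values that were not called as reported. Against control, Sgpp2 turned under edgeR (-0.027) and DESeq2 (-0.020). With 1 library left out, Sgpp2 ranged from -0.26 to 0.29, Plat from -0.043 to 0.25, Mitf from -0.15 to 0.11 and Slc7a2 from -0.55 to 0.12. For the line difference a pseudocount of 5 turned Pilra (0.20) and Apol10b (1.15). edgeR turned Dnase1l3 (-2.06), Tyr (0.20) and Slit2 (-0.57), and DESeq2 turned Dnase1l3 (-1.09), Tyr (0.24) and Sprr2k (-0.30). With 1 library left out, Cryaa ranged from -0.62 to 0.25, Acta1 from -0.085 to 0.96, Tagln from -0.17 to 0.99, Tyr from -0.90 to 0.59, Myh11 from -1.17 to 0.28 and Opcml from -1.05 to 0.17. At the depth of these libraries, folds of genes with 3 or fewer control reads are bounds or wide intervals.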

Other observations

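The shares of called and of tested genes on some chromosomes lay apart. This was looked at after the values had been seen, and no test was made of it. Chromosome 8 held 52 of the 317 genes called lower with MRTFA in B16F10 (16.4%), against 5.25% of the 13517 genes tested. Chromosome 1 held 36 of them (11.4%, against 5.87% of genes tested). Chromosome 9 held 58 of the 538 genes called higher (10.8%, against 5.62%), and chromosome 1 held 48 (8.92%). Chromosome X held 10 of the genes called lower (3.15%, against 3.43% of genes tested), but 7 of the 48 that were at least 2-fold lower (14.6%), among them neighbouring Rhox genes, which are close copies of each other.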
